A study of Mus musculus with 12 samples.

Results

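The retinoid handling genes described here are 9 mouse genes that carry, make, bind or read vitamin A compounds: Stra6, Rbp4, Lrat, Aldh1a1, Aldh1a2, Aldh1a3, Crabp1, Crabp2 and Rarb. They were taken from the table of read counts by their gene names, and all 9 were found among its 49671 genes. RNA was sequenced from ImPSC-1, an immortalised mouse line labelled as pancreatic mesenchymal cells and, in the series' design, as pancreatic stellate cells. Its 4 stable derivatives were shKitl (hairpin RNA against Kitl), shCtrl (control hairpin), Kitl_OE (Kitl overexpressed) and Egfp_OE (the fluorescent protein EGFP overexpressed), with 3 libraries each. The genotype labels read Kitl knock down, WT, Kitl overexpression and Egfp overexpression in that order of lines, and all lines grew in the same medium with serum. The labels name 1 stable line per group, so a difference between groups and one between lines that were made separately cannot be told apart. No label says whether libraries of the same line were grown separately, and the p-values below therefore reflect the spread among these libraries alone, which may be technical. The study asked what the cells' own Kitl, which encodes KIT ligand (stem cell factor), does in these cells.

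Retinol travels in blood on retinol-binding protein 4 (Rbp4) and can enter cells through the membrane receptor STRA6. LRAT esterifies it for storage in lipid droplets, which quiescent stellate cells of pancreas and liver are known for and lose when activated. Oxidation to retinal and then, by the retinaldehyde dehydrogenases ALDH1A1, ALDH1A2 and ALDH1A3, to retinoic acid makes the active hormone. CRABP1 and CRABP2 bind retinoic acid inside the cell, with CRABP2 known for delivering it to nuclear receptors. RARB is one of these receptors, and Rarb itself is a classic target gene of retinoic acid, as is Cyp26a1, whose product breaks retinoic acid down.

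Rarb is shown first as sequence because its promoter holds a retinoic acid response element by letter, and Cyp26a1 because it was 1 of 2 genes with such a match (the other was Bco1) among 51 further retinoid pathway genes that had a promoter sequence. Crabp1 and Aldh1a1 are shown as the members with the largest difference in each direction. The windows are RefSeq sequences on GRCm38.p6, running from 250 bases before to 50 bases after an annotated start, 5′ to 3′ on the strand of the gene. They lie at chr14:16575427-16575726 on the minus strand (Rarb) and on the plus strand at chr19:37697558-37697857 (Cyp26a1), chr9:54764498-54764797 (Crabp1) and chr19:20601718-20602017 (the Aldh1a1 window that lies inside the annotated gene). Capitals mark the matched element.
Rarb: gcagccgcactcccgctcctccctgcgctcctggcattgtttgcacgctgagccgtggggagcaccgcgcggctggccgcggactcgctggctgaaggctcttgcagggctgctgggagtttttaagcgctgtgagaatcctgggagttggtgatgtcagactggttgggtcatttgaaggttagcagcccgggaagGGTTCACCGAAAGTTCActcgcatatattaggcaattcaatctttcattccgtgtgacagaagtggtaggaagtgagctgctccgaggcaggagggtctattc
Cyp26a1: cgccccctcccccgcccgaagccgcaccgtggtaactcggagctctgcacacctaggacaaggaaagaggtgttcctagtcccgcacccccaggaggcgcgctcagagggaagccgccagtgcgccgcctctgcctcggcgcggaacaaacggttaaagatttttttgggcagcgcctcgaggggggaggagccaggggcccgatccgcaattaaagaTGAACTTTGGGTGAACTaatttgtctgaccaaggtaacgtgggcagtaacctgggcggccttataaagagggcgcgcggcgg
Crabp1: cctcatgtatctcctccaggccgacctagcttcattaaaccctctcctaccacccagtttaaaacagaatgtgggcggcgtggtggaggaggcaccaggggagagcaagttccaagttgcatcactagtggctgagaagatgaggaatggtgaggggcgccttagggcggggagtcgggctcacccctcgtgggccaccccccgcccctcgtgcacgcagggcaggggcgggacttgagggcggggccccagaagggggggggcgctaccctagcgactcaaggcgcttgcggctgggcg
Aldh1a1: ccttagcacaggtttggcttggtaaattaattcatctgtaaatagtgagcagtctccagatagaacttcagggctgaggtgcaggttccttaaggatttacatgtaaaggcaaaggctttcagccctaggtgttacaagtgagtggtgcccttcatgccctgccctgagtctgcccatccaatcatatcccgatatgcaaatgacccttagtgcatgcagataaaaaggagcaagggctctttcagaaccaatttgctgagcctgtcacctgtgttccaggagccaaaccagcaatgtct

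The search looked on both strands for a pair of half-sites in the same orientation and 5, 2 or 1 bases apart. The first half-site allowed was AGGTCA. The second was AGTTCA, and the last was GGTTCA. Promoter sequences were at hand for 7 of the 9 members, and Rarb was the 1 with a match. Its element, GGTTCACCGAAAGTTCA, lies 53 to 37 bases before the start with a spacing of 5. The Cyp26a1 element, on the opposite strand, lies 32 to 16 bases before the start, also with a spacing of 5. Of all 32851 promoter windows, 20 (0.0609%) held a match with a spacing of 5 and 122 (0.371%) held one with any of the spacings. The Crabp1 window had 65% G and C with 17 CpG pairs, the Rarb window 57.7% with 17, and the Aldh1a1 window shown 47% with 1, beside a median of 52.7% and 7 over all windows. A match in letters is a description and no evidence that a receptor binds there.

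The libraries held 24979742 to 33517686 counts in genes. Levels are given as CPM (library-scaled counts, with edgeR's TMM correction) for 1 gene across libraries, and as the authors' TPM values, which also correct for transcript length, between genes. Kitl, the targeted gene, was at 25.1, 25.5 and 30.3 CPM in shKitl, against 73.4, 73.5 and 76.3 CPM in shCtrl, and at 125, 114 and 128 CPM in Kitl_OE, against 72.4, 31.8 and 72.2 CPM in Egfp_OE. Kitl followed the labels without overlap in either pair, with a log2 fold change of -1.46 between shKitl and shCtrl (edgeR adjusted p 0.121) and 1.06 between Kitl_OE and Egfp_OE (adjusted p 0.00836). Egfp_OE replicate 2 stood apart: besides the lowest Kitl of its group, spike-in RNA made up 1.35% of its counts, against 0.446% to 0.684% in the other 11 libraries, and the log2 fold changes below that moved by over 1.5 times when it was left out are given with and without it. Mesenchymal genes were abundant, with 13 stellate and mesenchymal markers summing to 21387 to 25445 CPM in Kitl_OE and 5063 to 6597 CPM in Egfp_OE. They summed to 7478 to 18434 CPM in shKitl and 5459 to 7171 CPM in shCtrl. Single markers moved both ways between Kitl_OE and Egfp_OE: of 12 tested as described below, 6 were higher (Acta2 and Lum among them) and 3 lower (Pdgfra and Ngfr among them). By contrast, 5 hepatocyte markers summed to 0.400 CPM at most. The 7 blood cell markers summed to 1.13 to 3.45 CPM over all libraries, most of it the macrophage gene Cd68. The 11 pancreatic epithelial markers summed to 7.39 to 13.5 CPM in Kitl_OE and 59.7 to 88.1 CPM in Egfp_OE, and to 19.9 to 33.5 CPM in shKitl and 25.0 to 46.2 CPM in shCtrl. Most of that sum was Sox9, a transcription factor gene of pancreatic ducts among other tissues, while Ins1 and Ins2 had 0 counts in every group. The 5 endothelial markers summed to 24.3 to 27.9 CPM in Kitl_OE and 10.6 to 10.9 CPM in Egfp_OE, and to 9.86 to 23.7 CPM in shKitl and 6.48 to 12.8 CPM in shCtrl. The part of these lists in the results below was not tested. Gfap, a marker of quiescent stellate cells, had 12 to 28 counts per group and did not pass the count filter.

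By level, Crabp1 and Aldh1a1 dominated the members and no other exceeded 20 TPM in any library. Crabp1 was at a mean of 579 TPM in shKitl, 289 TPM in shCtrl, 5.96 TPM in Kitl_OE and 793 TPM in Egfp_OE. Ranked by mean TPM among 49671 genes, Crabp1 stood at 237 in shKitl, 525 in shCtrl, 9798 in Kitl_OE and 157 in Egfp_OE. Aldh1a1 ran in another order of groups: it averaged 194 TPM in shKitl, 23.9 TPM in shCtrl, 416 TPM in Kitl_OE and 4.93 TPM in Egfp_OE, at ranks of 827, 5978, 344 and 10312 in the same order of lines. The paralogs were far less abundant. Crabp1 exceeded Crabp2 in mean TPM by 175 times in shKitl, 150 times in shCtrl, 4.91 times in Kitl_OE and 92.5 times in Egfp_OE. Aldh1a1 made up 99.9%, 99.2% and 96.9% of the summed TPM of the 3 Aldh1a genes in shKitl, shCtrl and Egfp_OE, and nearly all of it in Kitl_OE.

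**Figure D1:**
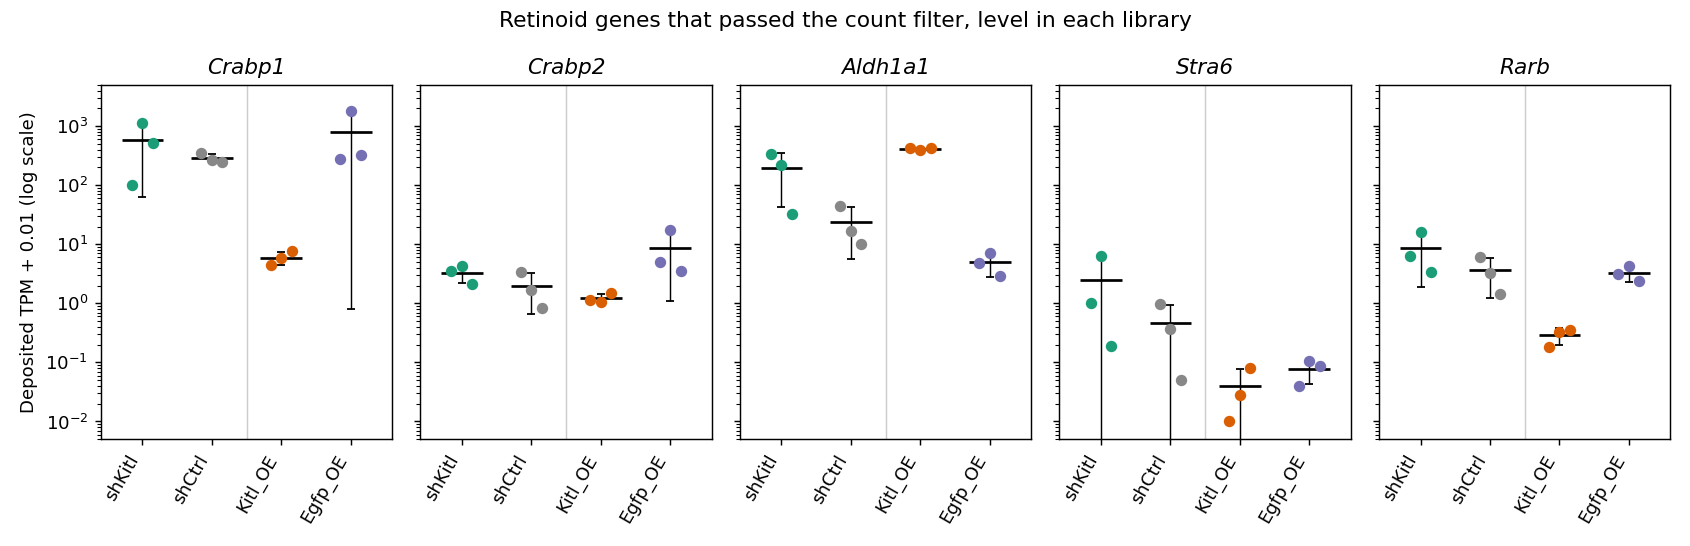
Level of the 5 members that passed the count filter in each of the 12 libraries, as deposited TPM with 0.01 added, on a log axis. Points are libraries, horizontal bars group means and vertical bars SD (n = 3 per group), and a bar that reaches 0 or below runs off the axis. Crabp1 and Rarb are lowest in the 3 Kitl_OE libraries, where Aldh1a1 is highest.

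Filtering on counts kept 5 members for testing (Crabp1, Crabp2, Aldh1a1, Stra6 and Rarb), while Rbp4, Aldh1a2, Aldh1a3 and Lrat were too low. Tests used edgeR's quasi-likelihood method over 15271 genes with Benjamini-Hochberg adjustment and a threshold of 0.05. Genes past it are said to be called.

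Between Kitl_OE and Egfp_OE, Aldh1a1 rose and Crabp1, Crabp2 and Rarb fell, so 4 of the 5 tested members were called, 1 higher and 3 lower. This is a comparison in which 34.3% of all genes tested were called, 15.4% higher and 18.9% lower. The libraries of the pair did not overlap for the same 4 members, as was so for 50.5% of all genes. The median log2 fold change of the 5 members was -3.01, against -0.07 for all genes tested. In these bulk libraries, fewer cells that make a transcript and less of it per cell cannot be told apart.

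Aldh1a1 (chr19:20492715-20643465, plus strand), the retinaldehyde dehydrogenase, was at 327, 278 and 289 CPM in Kitl_OE, against 3.29, 6.37 and 1.78 CPM in Egfp_OE. The Kitl_OE libraries lay within 1.18 times of each other, and the lowest was far above the highest Egfp_OE library. The mean was 298 ± 25.6 CPM in Kitl_OE and 3.81 ± 2.34 CPM in Egfp_OE (SD, n = 3 each), 78.1-fold higher. Its log2 fold change of 6.30 ± 0.89 (SE) passed edgeR's quasi-likelihood test at an adjusted p of 0.000375. This direction is opposite to that of the 3 other members called.

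Markers of mesothelium, the cell layer that covers abdominal organs, moved with Aldh1a1. Of 12 such genes, 7 were tested and 6 were higher in Kitl_OE than in Egfp_OE, none lower. The summed CPM of the list was 386 to 634 in Kitl_OE and 18.9 to 35.0 in Egfp_OE, and it was 112 to 191 in shKitl and 82.1 to 106 in shCtrl. Upk3b, a uroplakin of mesothelial cells, was at 147 ± 48.5 CPM in Kitl_OE and 0.252 ± 0.169 CPM in Egfp_OE (SD, n = 3 each). Other defining markers were near 0: Wt1, Lrrn4 and Muc16 had 20, 5 and 1 counts over the Kitl_OE libraries, and 13, 2 and 0 counts over the Egfp_OE libraries. Their part in the Aldh1a1 result was not tested.

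Crabp1 (chr9:54764748-54773110, plus strand), a cytoplasmic carrier of retinoic acid, had 34, 44 and 59 counts in Kitl_OE, against 2539, 15699 and 2309 counts in Egfp_OE. These correspond to 1.32, 1.61 and 2.01 CPM in Kitl_OE and to 72.6, 629 and 77.4 CPM in Egfp_OE. The Kitl_OE libraries were close together and all far below the lowest Egfp_OE library, while Egfp_OE replicate 2 was several times above the others of its line. The mean of 1.65 ± 0.347 CPM in Kitl_OE and 260 ± 320 CPM in Egfp_OE (SD, n = 3 each) makes it 157-fold lower, with a log2 fold change of -7.29 ± 1.10 (SE) at an adjusted p of 0.00056 by edgeR's quasi-likelihood test. Without Egfp_OE replicate 2 the log2 fold change was -5.49 (adjusted p 0.000538 by the same test).

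Crabp2 (chr3:87948666-87953376, plus strand), which carries retinoic acid to nuclear receptors, was low throughout. It was at 0.544, 0.476 and 0.648 CPM in Kitl_OE, against 2.23, 9.97 and 1.38 CPM in Egfp_OE, and fell 8.14-fold without overlap. Its log2 fold change was -3.01 ± 0.72 (SE; edgeR adjusted p 0.00824). Again Egfp_OE replicate 2 was the highest library, and without it the log2 fold change was -1.68 (adjusted p 0.0202).

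Rarb (chr14:16430839-16819156, minus strand), the retinoic acid receptor whose promoter is shown above, was at 0.194, 0.330 and 0.341 CPM in Kitl_OE, against 3.09, 5.77 and 2.15 CPM in Egfp_OE. All 3 Kitl_OE libraries lay below all 3 Egfp_OE libraries, and the mean was 12.7-fold lower. The log2 fold change was -3.64 ± 0.70 (SE; edgeR adjusted p 0.00244), and it stayed between -3.90 and -3.14 when each of the 12 libraries was left out in turn. Rarb overlaps Top2b, a topoisomerase gene on the opposite strand with 1656 to 4961 counts per library. It is not known here whether strand was used in counting, so reads from the overlap cannot be assigned to one of them.

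Stra6 (chr9:58063788-58153996, plus strand), the retinol receptor, had 0, 1 and 4 counts in Kitl_OE, against 2, 6 and 4 counts in Egfp_OE. The lines overlapped, and the ratio of the scaled counts was 0.454 with an exact 95% interval of 0.125 to 1.39, which covers counting error only. Its log2 fold change of -1.14 ± 1.73 (SE) had an adjusted p of 0.645 in edgeR and was -2.59 without Kitl_OE replicate 3, so no difference was detectable at this depth.

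**Figure D2:**
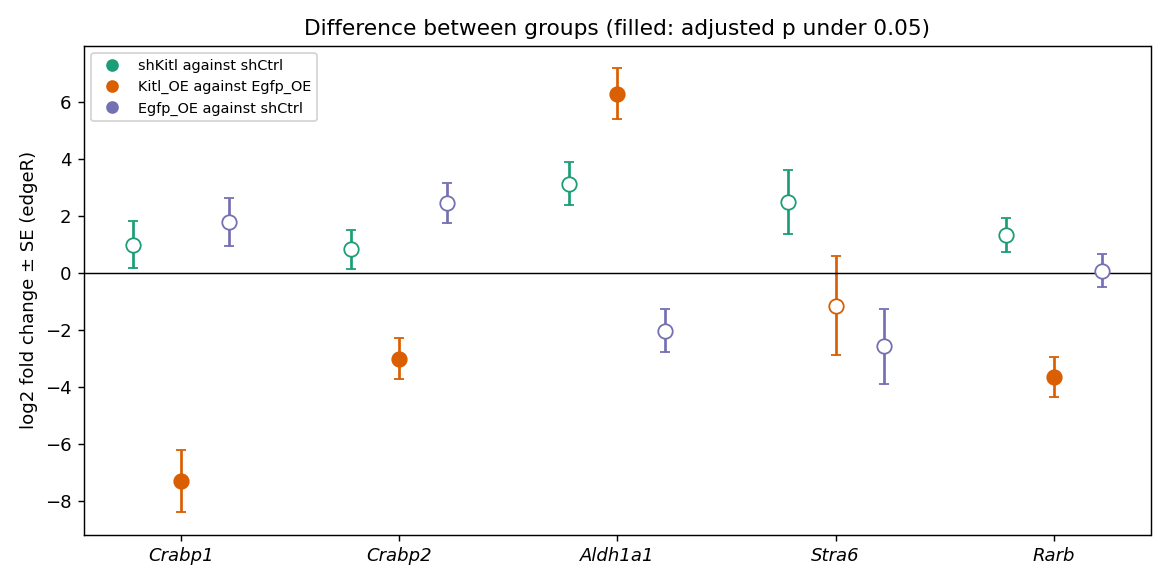
Log2 fold change with its SE from edgeR for the 5 members tested, in shKitl against shCtrl, Kitl_OE against Egfp_OE, and Egfp_OE against shCtrl. Filled points passed an adjusted p of 0.05, and all 4 of them belong to Kitl_OE against Egfp_OE, with Aldh1a1 at 6.30 above the line at 0 and Crabp1 at -7.29, Rarb at -3.64 and Crabp2 at -3.01 below it.

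Of the 4 members too low to test, Rbp4 (chr19:38116629-38125281, minus strand), the blood carrier of retinol, had 1 count over the 3 Kitl_OE libraries, against 26 over the 3 Egfp_OE libraries. The ratio was 0.0419, with an exact 95% interval from 0.00102 to 0.255, and 16 of the 26 counts came from Egfp_OE replicate 2, with 4 and 6 in replicates 1 and 3. With no filter on low counts, edgeR gave Rbp4 a log2 fold change of -4.19 at an adjusted p of 0.0199. Aldh1a2 (chr9:71215789-71296243, plus strand) had no count in Kitl_OE, against 5 in Egfp_OE. With Kitl_OE set to the floor of 3 counts, the fold was 1.53 lower, a value that leaves out the counting error of the 5. With no filter on low counts, edgeR did not call Aldh1a2 (log2 fold change -3.72, adjusted p 0.157).

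Aldh1a3 (chr7:66390890-66427517, minus strand), the third retinaldehyde dehydrogenase, had 10 counts in Kitl_OE and 13 in Egfp_OE, a ratio of 0.839 with an exact 95% interval of 0.329 to 2.07. Lrat (chr3:82892579-82903973, minus strand), the retinol-esterifying enzyme that marks retinoid-storing stellate cells, had no count in Kitl_OE and 2 in Egfp_OE, which gives no fold. Over all 12 libraries Lrat reached 2 counts at most, and a group without a count allows up to 0.0364 CPM in shKitl or Kitl_OE.

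Between shKitl and shCtrl no member was called, nor was any gene (0% of those tested), although 2417 genes had an unadjusted p under 0.05 and DESeq2 called 452. Among the members, Aldh1a1, Rarb and Stra6 had an unadjusted p under 0.05, DESeq2 called Aldh1a1 alone and limma-voom called none. The libraries of the lines overlapped for each of the 5 tested members, while they did not overlap for 19.7% of all genes tested. Their median log2 fold change was 1.33, against 0.05 for all genes tested.

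Aldh1a1 was at 246, 140 and 21.5 CPM in shKitl, against 27.5, 11.3 and 7.37 CPM in shCtrl. Replicates 1 and 2 of shKitl were above every shCtrl library, and replicate 3 was below the highest of them. The log2 fold change of 3.14 ± 0.76 (SE) had an adjusted p of 0.177 in edgeR. It was 3.64 at an adjusted p of 0.0279 without shKitl replicate 3, but 2.38 at 0.382 without shKitl replicate 1 and 3.86 at 0.0605 without shCtrl replicate 1. With the P number of the labels as a covariate it was 2.23, and with the libraries of shared P numbers alone 1.99.

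Rarb was at 6.93, 15.7 and 3.32 CPM in shKitl, against 5.56, 3.19 and 1.52 CPM in shCtrl, and the 2 highest libraries were shKitl. Its log2 fold change of 1.33 ± 0.59 (SE) had an adjusted p of 0.308 in edgeR. Stra6 was at 2.06, 11.8 and 0.336 CPM in shKitl, against 1.71, 0.670 and 0.0847 CPM in shCtrl, a log2 fold change of 2.49 ± 1.11 (SE; adjusted p 0.308). Within shKitl, Stra6 varied 35.1-fold and within shCtrl 20.2-fold, so the spread inside each line was wider than the difference between them. Without shKitl replicate 2, the log2 fold change was 0.58 for Rarb and 0.52 for Stra6, and without shCtrl replicate 1 it was 3.61 for Stra6.

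Crabp1 was at 28.7, 285 and 133 CPM in shKitl, against 83.4, 70.5 and 70.7 CPM in shCtrl. It varied 9.93-fold within shKitl and 1.18-fold within shCtrl, with shKitl on both sides of shCtrl. The log2 fold change was 0.99 ± 0.83 (SE; edgeR adjusted p 0.569), or 0.11 without shKitl replicate 2. Crabp2, at 1.63, 1.82 and 0.896 CPM in shKitl and 1.32, 0.709 and 0.381 CPM in shCtrl, gave 0.84 ± 0.69 (SE; adjusted p 0.566). Of the low members, Rbp4, Aldh1a2, Aldh1a3 and Lrat had 6, 6, 10 and 0 counts in shKitl, and 9, 8, 8 and 1 counts in shCtrl, and the exact 95% interval of each ratio that could be formed spanned 1.

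The labels give each library a P number, whose meaning they do not state: 13 to 15 in shKitl, 14 to 16 in shCtrl, 18 to 20 in Kitl_OE and 17 to 19 in Egfp_OE. Within both hairpin lines Aldh1a1 was lower at each higher P number. Across the 6 hairpin libraries, with the line as a term, the slope was -1.30 ± 0.249 (SE) log2 units per P number for Aldh1a1 (edgeR adjusted p 0.139). Of the 5 members none was called for the slope, though Aldh1a1 and Crabp2 had an unadjusted p under 0.05, and 14 of the 14386 genes tested (0.0973%) were called. At P number 14, Aldh1a1 was at 140 CPM in shKitl and 27.5 CPM in shCtrl (5.11 times), and at P number 15 at 21.5 CPM in shKitl and 11.3 CPM in shCtrl (1.90 times). Stra6 at P number 15 was at 0.336 CPM in shKitl and 0.670 CPM in shCtrl, the opposite order from P number 14.

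Kitl_OE and Egfp_OE share P numbers 18 and 19, and the differences between these lines held there. The Egfp_OE library at P number 18 is replicate 2, which stood apart as described above. At P number 18, Crabp1 was at 1.32 CPM in Kitl_OE and 629 CPM in Egfp_OE. At P number 19 it was at 1.61 CPM in Kitl_OE and 77.4 CPM in Egfp_OE. Aldh1a1 was at 327 CPM in Kitl_OE and 6.37 CPM in Egfp_OE at P number 18, and at 278 CPM in Kitl_OE and 1.78 CPM in Egfp_OE at P number 19. In a fit of the 8 libraries with a P number in both lines of their pair, the same 4 members were called between Kitl_OE and Egfp_OE. That fit called 2334 of the 15394 genes tested in this pair, and it reuses libraries of the main fit, Egfp_OE replicate 2 among them.

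**Figure D3:**
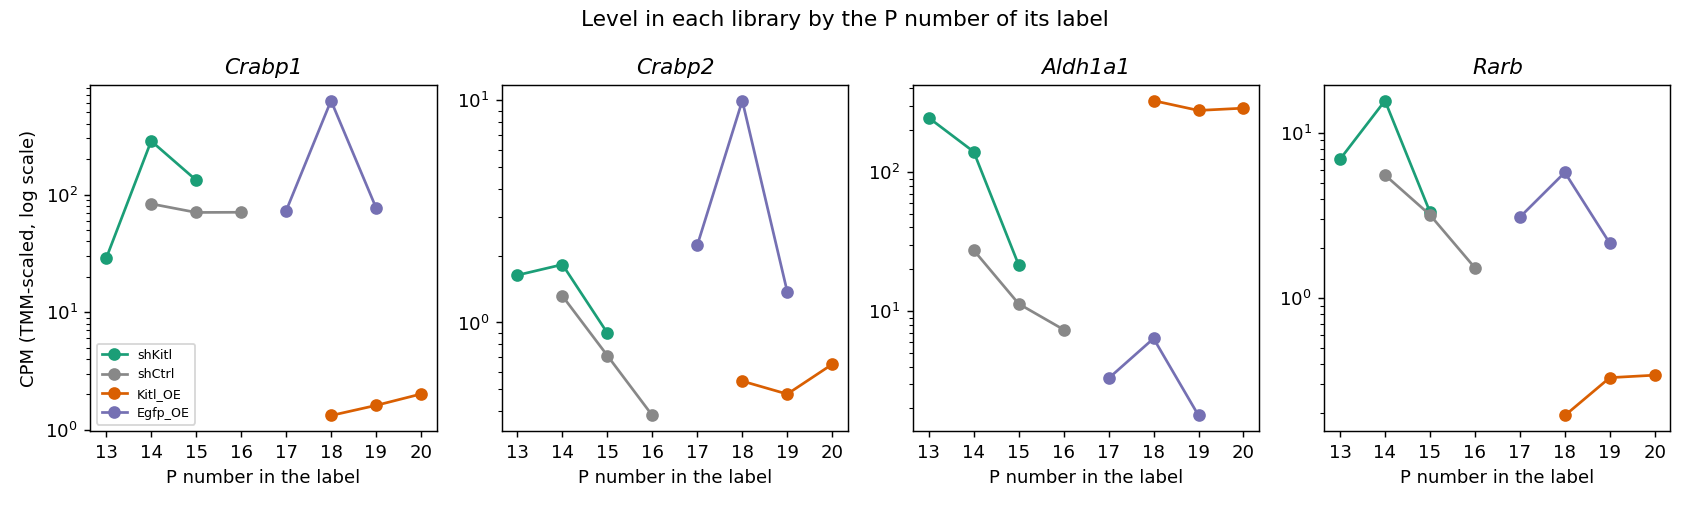
CPM of Crabp1, Crabp2, Aldh1a1 and Rarb in each library, on a log axis, against the P number of its label, with lines joining the 3 libraries of a group. Aldh1a1 falls along both hairpin lines, from 246 CPM at 13 to 21.5 CPM at 15 within shKitl, and lies near 300 CPM in Kitl_OE at 18 to 20.

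The test of the difference between the pairs, Kitl_OE against Egfp_OE minus shKitl against shCtrl, called 3 of the 5 tested members, all lower; 14% of all genes tested were called, 4.07% higher and 9.88% lower. Crabp1 had a difference of -8.28 ± 1.34 (SE) on the log2 scale (edgeR adjusted p 0.00228), Rarb one of -4.97 ± 0.92 (adjusted p 0.00498) and Crabp2 one of -3.84 ± 0.99 (adjusted p 0.0254). Crabp2 lost its call without any 1 of 6 libraries: replicates 2 and 3 of shCtrl (-3.70 and -3.46), replicate 2 of shKitl (-3.64) and each Kitl_OE replicate (-3.77, -3.71 and -3.90). Without Egfp_OE replicate 2 the difference was -6.43 for Crabp1 and -2.48 for Crabp2, and without shKitl replicate 2 it was -7.39 for Crabp1 and -4.21 for Rarb, all still called. Aldh1a1, at 3.16 ± 1.03 (SE), had an adjusted p of 0.0638, and Stra6, at -3.63 ± 2.06 (SE), one of 0.267. Without Egfp_OE replicate 2 these were 3.77 and -3.01. With 1 library left out, the difference ranged over 2.44 to 3.94 for Aldh1a1, which was called without shKitl replicate 1 (3.94) or 3 (2.67), and over -5.02 to -1.66 for Stra6. For Aldh1a1 both log2 fold changes were positive, 6.30 between Kitl_OE and Egfp_OE and 3.14 between shKitl and shCtrl, and the test of their difference missed the threshold.

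The controls were also set against each other, Egfp_OE against shCtrl, which shares its libraries with the comparisons above. No member was called by edgeR (1.25% of all genes tested were, 0.511% higher and 0.74% lower), although Aldh1a1 and Crabp2 had an unadjusted p under 0.05 and DESeq2 called both (limma-voom none). Crabp2, at 2.23, 9.97 and 1.38 CPM in Egfp_OE, did not overlap shCtrl at 1.32, 0.709 and 0.381 CPM, a log2 fold change of 2.47 ± 0.70 (SE; edgeR adjusted p 0.0888), or 1.15 without Egfp_OE replicate 2. Aldh1a1 did not overlap either, with Egfp_OE below shCtrl at -2.02 ± 0.75 (SE; adjusted p 0.143), or -1.31 without shCtrl replicate 1. Crabp1 (1.79 ± 0.84), Stra6 (-2.56 ± 1.31) and Rarb (0.09 ± 0.59) gave overlapping libraries, and 28.5% of all genes did not overlap between these controls. Without Egfp_OE replicate 2, the log2 fold change of Crabp1 was 0.0041: the other Egfp_OE libraries, at 72.6 and 77.4 CPM, lay within the shCtrl libraries at 83.4, 70.5 and 70.7 CPM. Stra6 gave -1.44 without shCtrl replicate 1. Rbp4 had 26 counts in Egfp_OE and 9 in shCtrl, a ratio of 2.56 with an exact 95% interval of 1.16 to 6.20. That interval covers counting error only: 16 of the 26 counts came from Egfp_OE replicate 2 and 7 of the 9 from shCtrl replicate 1. With no filter on low counts, edgeR gave a log2 fold change of 1.43 (adjusted p 0.528), not called.

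Set in order of mean TPM, Aldh1a1 ran from Kitl_OE over shKitl and shCtrl to Egfp_OE, and of these neighbours only shKitl and shCtrl overlapped. Crabp1 and Crabp2 both ran from Egfp_OE over shKitl and shCtrl to Kitl_OE; for Crabp1 the step down to Kitl_OE was the one without overlap, and for Crabp2 all neighbours overlapped. Rarb ran from shKitl over shCtrl and Egfp_OE to Kitl_OE, and the last step alone was free of overlap. Stra6 ran from shKitl over shCtrl and Egfp_OE to Kitl_OE with all neighbours overlapping.

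Beyond the members, 75 genes of retinoid handling were set in 6 lists, and 57 of them were tested. None was called between shKitl and shCtrl by edgeR, where 15 had an unadjusted p under 0.05 and DESeq2 called Cyp2s1 and Tgm2 (limma-voom none). Between Kitl_OE and Egfp_OE 25 were called, 12 higher and 13 lower, in a comparison that called 34.3% of all genes tested (15.4% higher, 18.9% lower). In that pair the 5 genes of retinoic acid breakdown gave 1 higher and 3 lower, with a median log2 fold change of -1.85, against -0.07 for all genes tested. Cyp26a1 and Cyp26c1, hydroxylases that clear retinoic acid, changed by -3.12 ± 0.94 and -2.42 ± 0.73 (SE), and Cyp1b1, a cytochrome P450 that also oxidises retinoids, by -1.85 ± 0.47. Cyp2s1, a cytochrome P450 also reported to oxidise retinoic acid, rose by 3.39 ± 0.63. The remaining gene of the list, Cyp26b1, of the same family as Cyp26a1 and Cyp26c1, was not called by edgeR, while DESeq2 called it higher. Cyp26a1 was near its detection limit, at 0, 0.146 and 0.0683 CPM in Kitl_OE, against 0.257, 1.44 and 0.335 CPM in Egfp_OE. Its call was lost without Egfp_OE replicate 2 (-1.95), Kitl_OE replicate 1 (-2.57) or Kitl_OE replicate 3 (-3.05), and the value was -4.03 without Kitl_OE replicate 2. Cyp26c1 lost its call without Egfp_OE replicate 2 (-1.77) or any 1 of the Kitl_OE replicates (-2.63, -2.03 and -2.59).

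In retinol transport and uptake, a list of 4 tested genes, Lpl, a lipase that helps cells take up lipids with their retinyl esters, rose by 1.92 ± 0.58 (SE), a call lost without Egfp_OE replicate 1 (1.86) or 3 (1.52) or Kitl_OE replicate 1 (1.89) or 2 (1.76). Without Egfp_OE replicate 2 it was 2.60.

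Of 6 tested genes of retinyl ester storage and hydrolysis, 2 fell, Dgat2, an acyltransferase of lipid droplets, by 2.15 on the log2 scale and Plin2, a lipid droplet coat protein, by 0.60. Plin2 lost its call without Kitl_OE replicate 1 (-0.58) or 3 (-0.54). Of 14 tested retinol and retinal oxidoreductases, 2 fell: Adh1, an alcohol dehydrogenase, by 3.21 and Akr1b3, an aldose reductase, by 0.78 on the log2 scale. Adh1 lost its call without Kitl_OE replicate 1 (-3.11) or 3 (-2.88), and without Egfp_OE replicate 2 it was -2.27 (edgeR adjusted p 0.0465).

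Of 13 tested receptors, partners and coregulators, 6 rose and 2 fell. Those with the largest changes were Fabp5, a fatty acid-binding protein that can also carry retinoic acid (1.33 ± 0.23, SE), the coactivators Ncoa1 (1.05 ± 0.21) and Ncoa3 (0.97 ± 0.26) and the receptor Ppard (1.00 ± 0.17). Rara, another retinoic acid receptor gene, changed by -0.60 ± 0.18. Without Kitl_OE replicate 2, 6 of the 13 were called higher and none lower, Rara included. With scaling by spike-in totals, 1 of the 13 was called higher and none lower.

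The 18 tested target genes of retinoic acid moved both ways, 4 higher and 4 lower, with a median log2 fold change of 0.31. Tgm2, a transglutaminase, was at 344, 294 and 361 CPM in Kitl_OE, against 13.8, 14.9 and 9.29 CPM in Egfp_OE, without overlap, and rose by 4.72 ± 0.79 (SE; edgeR adjusted p 0.00105). Gata6, a transcription factor gene, rose by 2.52 ± 0.34. Rarres1, named for its response to retinoids, changed by -2.16 ± 0.60 and lost its call without Kitl_OE replicate 3 (-1.89). The 4 tested genes whose promoter holds an element with a spacing of 5 were Rarb (-3.64), Cyp26a1 (-3.12), Blvrb (0.39) and Tnfsf13b (-0.12), and the first pair were called. Of all genes tested in this comparison 34.3% were called, 18.9% lower, and a part of the element in these changes was not tested.

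**Figure D4:**
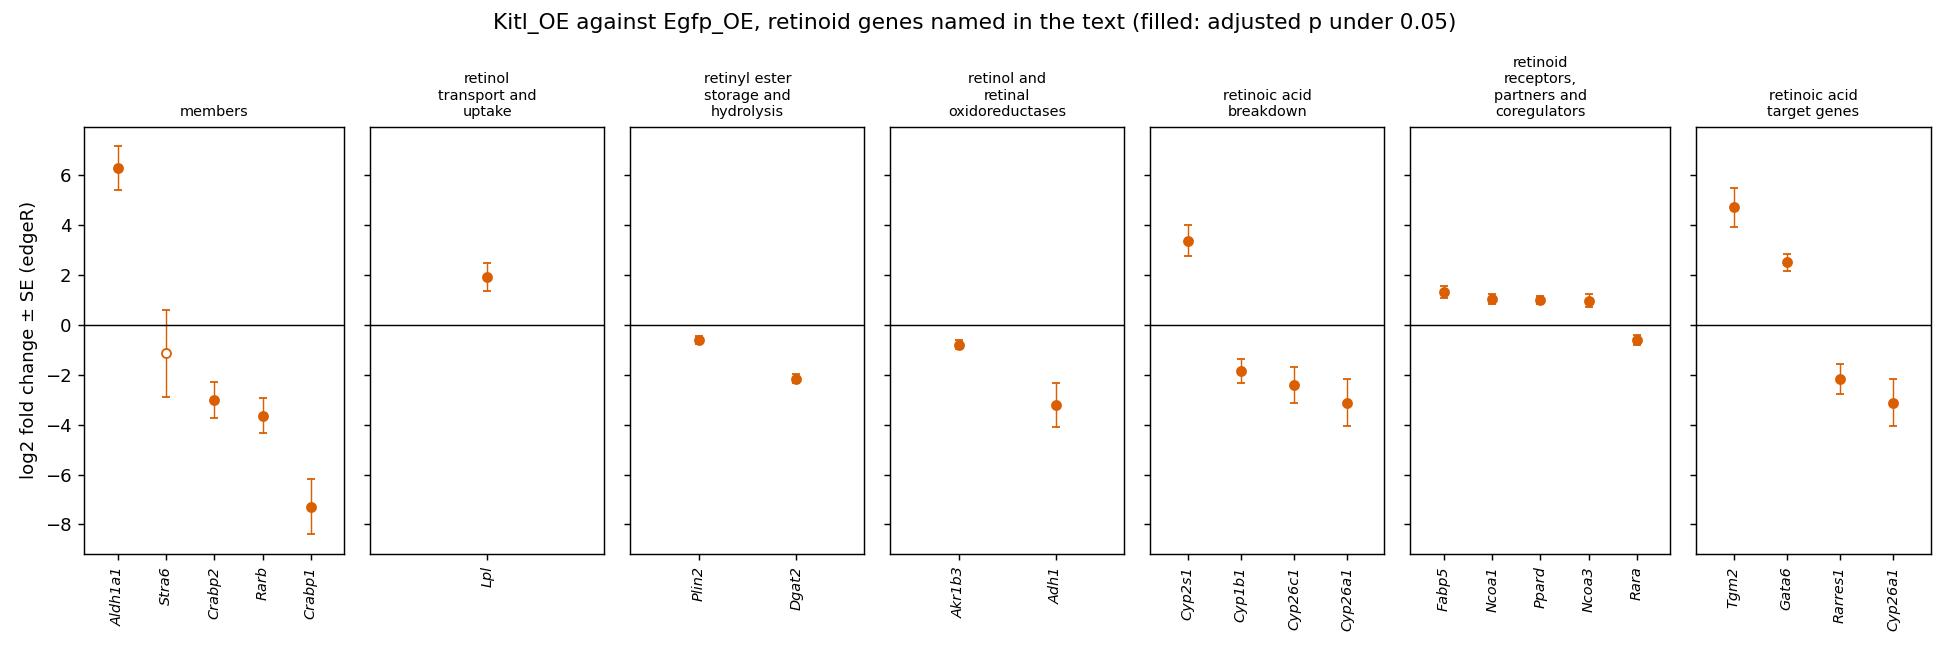
Log2 fold change in Kitl_OE against Egfp_OE with its SE from edgeR, for the tested members and the genes of 6 retinoid lists that the text names, each list ordered from its highest to its lowest value. Filled points passed an adjusted p of 0.05. The members span 6.30 (Aldh1a1) to -7.29 (Crabp1), and the list genes shown, which leave out those not called, lie between 4.72 (Tgm2) and -3.21 (Adh1).

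In the difference between the pairs, Cyp26a1, Cyp26c1, Dgat2, Adh1, Akr1b3 and Rarres1 were among the list genes called lower, and Ncoa1 was called higher. Cyp26c1, Adh1, Akr1b3 and Rarres1 each lost that call when 1 of several libraries was left out. For Cyp26a1 that difference was -5.55 ± 1.31 (SE; edgeR adjusted p 0.0166), with 2.43 ± 0.91 (adjusted p 0.256) between shKitl and shCtrl. It was -4.35 without Egfp_OE replicate 2, -6.72 without shCtrl replicate 1 and -6.46 without Kitl_OE replicate 2, called each time. Tgm2 had 2.16 ± 0.71 (SE; adjusted p 0.234) between shKitl and shCtrl.

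The genes whose log2 levels were most alike to a member over the 12 libraries, among 10690 genes, were H1f0 (Pearson r 0.980), Lpar4 (0.976) and Sprr2k (0.974) for Crabp1, Bmp4 (0.984), Lif (0.984) and Gm2a (0.981) for Aldh1a1, and Sema6a (0.979), Enpp2 (0.971) and Pla1a (0.967) for Rarb. These are descriptions, since the 12 libraries come from 4 lines and each r is largely set by the levels of the lines. Bmp4, a secreted growth factor gene, averaged 16.5 CPM in shKitl, 2.96 in shCtrl, 50.8 in Kitl_OE and 1.01 in Egfp_OE, the order of Aldh1a1. Enpp2, which encodes the lysophosphatidic acid-producing enzyme autotaxin, averaged 102 CPM in shKitl, 20.04 in shCtrl, 0.722 in Kitl_OE and 31.7 in Egfp_OE.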

How the data were processed

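Raw counts for each gene, and TPM values of the same libraries, were deposited by the authors. STAR 2.5.2b, featureCounts (Subread 1.5.2), DESeq2 and the GRCm38 build are named, per the submitters' processing notes. The strand setting, the annotation release and the gene lengths behind the deposited TPM are not stated in the labels or file headers. RNA was polyA-selected, per the labels' protocols. Of 49763 entries, 92 ERCC spike-ins did not enter library sizes or tests.

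The main tests used edgeR 4.0.16 (R 4.3.3) on the counts, with filterByExpr by group and TMM scaling. A robust quasi-likelihood fit took all 12 libraries with 1 coefficient per group (biological coefficient of variation 0.292). The method was tried on simulated data, which had a smaller spread than this and no outlying library. Benjamini-Hochberg adjustment ran over 15271 genes. CPM values were computed here. Two-sided exact permutation of 3 against 3 libraries cannot go below 0.1, so none is given. Low members were compared by exact 95% conditional intervals of summed counts, with a floor of 3 counts per group. Intervals and floors cover counting error only. Gene coordinates are those of GENCODE M21 on GRCm38, matched by gene ID, and promoters are from RefSeq.

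The members and the 12 other gene lists were chosen with earlier results of these data known. Named were all members, Kitl, up to 4 called genes with the largest change per list and comparison, and the 3 genes most alike in log2(CPM + 0.5) to each member with a mean of at least 5 CPM in a group (Crabp1, Aldh1a1 and Rarb), of which some were left out for length. Rara and the promoter-matched genes, and the marker genes given beside a result, were in part chosen after their values were seen. The marker lists gave, in Kitl_OE against Egfp_OE, 6 higher and 3 lower of 12 tested for stellate and mesenchymal genes, 6 and 0 of 7 for mesothelium, 0 and 2 of 3 for pancreatic epithelium, 1 and 1 of 3 for endothelium, 0 and 0 of 1 for blood cells, and no tested gene for hepatocytes. A few genes of the lists are not reported here. Protein sequences were not used here.

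Alternatives were DESeq2 size factors, library totals or spike-in totals in place of TMM, DESeq2 1.42.0, limma-voom and limma (limma 3.58.1) on log2(TPM + 1) and log2(TPM + 0.1), no count filter or one at 5 CPM in 3 libraries, stricter calls (adjusted p under 0.01, or a log2 fold change of 1 or more in size), a replicate block, a P number covariate, a fit of just the pair compared, and leaving out every library in turn. The fit of libraries with shared P numbers and the P number slope were added after seeing the data.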

Additional observations from a re-analysis of the deposited data

Results flagged for a closer look

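For 3 members the effect of Kitl overexpression and that of the Kitl hairpin differed by the test of the difference itself, with edgeR's quasi-likelihood test over all 12 libraries. Crabp1 had a log2 fold change of -7.29 in Kitl_OE against Egfp_OE and 0.99 in shKitl against shCtrl, a difference of -8.28 (adjusted p 0.00228). Rarb had -3.64 in Kitl_OE against Egfp_OE and 1.33 in shKitl against shCtrl, a difference of -4.97 (adjusted p 0.00498). Crabp2 had -3.01 in Kitl_OE against Egfp_OE and 0.84 in shKitl against shCtrl, a difference of -3.84 (adjusted p 0.0254). None of the 3 was called between shKitl and shCtrl. Crabp2 lost its call for the difference under 10 of the alternatives and kept it under 15. For the difference limma-voom called Crabp1 and Rarb but not Crabp2.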

How the results depend on the processing

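Aldh1a1, Crabp1, Crabp2 and Rarb were called between Kitl_OE and Egfp_OE, in the same direction, under every alternative that tested them; Crabp2 was not tested with a CPM of at least 5 in 3 libraries. Their adjusted p ranged up to 0.00903 for Aldh1a1, 0.00519 for Crabp1, 0.0447 for Crabp2 and 0.0286 for Rarb. Between shKitl and shCtrl, DESeq2 called 1 member (Aldh1a1), and leaving out 1 library gave 0 to 1. Between Egfp_OE and shCtrl, DESeq2 called 2 (Aldh1a1 and Crabp2). For the difference between the pairs, 3 members were called; libraries with shared P numbers, chosen after seeing the data, gave 1 (Crabp1), and leaving out 1 library gave 2 to 4. Over the members' values, the difference between the pairs gave 11 calls lost and 7 gained, and in Kitl_OE against Egfp_OE none of the 5 tested members lost or gained a call, while with no filter Rbp4, otherwise not tested, was called (-4.19). Between Egfp_OE and shCtrl the sign turned for Aldh1a1 with the P number as covariate (0.48) and for Rarb with spike-in totals (-0.55), limma on log2(TPM + 1) (-0.0022) and leaving out 1 library (-0.39 to 0.63); the cause was not tested. Kitl in Kitl_OE against Egfp_OE lost its call with spike-in totals (0.95) and with libraries of shared P numbers (1.22). With the replicate number as a block, 0 members were called between shKitl and shCtrl and 4 between Kitl_OE and Egfp_OE. Under the same block 0 were called between Egfp_OE and shCtrl and 4 in the difference between the pairs. Deviations of same-numbered libraries correlated at -0.384 to 0.582 in all, and at 0.041, 0.280 and 0.232 between Kitl_OE and Egfp_OE. These few values of mixed sign cannot decide whether the number marks a pairing. Depth limits Rbp4, Aldh1a2, Aldh1a3, Lrat and, in the overexpression lines, Stra6. Counts of all genes called moved by over 1.5 times as follows. Between shKitl and shCtrl, 0 became 452 with DESeq2, 7 with limma on log2(TPM + 1), 23 with no filter and up to 277 with 1 library left out. Between Kitl_OE and Egfp_OE, 5236 became 2351 with spike-in totals, 2334 with libraries of shared P numbers, 2822 at an adjusted p of 0.01 and 3308 at a log2 fold change of at least 1. Between Egfp_OE and shCtrl, 191 ranged over 0 (P number as covariate, only the groups compared) to 1553 (DESeq2), and in the difference between the pairs 2131 ranged down to 642 with libraries of shared P numbers.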
